A study of Homo sapiens with 18 samples.

Results

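The genes described here modify collagen chains in the endoplasmic reticulum or crosslink collagen and elastin outside the cell. They are the lysyl hydroxylases PLOD1, PLOD2 and PLOD3, the catalytic subunits of prolyl 4-hydroxylase P4HA1 and P4HA2, the prolyl 3-hydroxylase P3H1, the collagen chaperone SERPINH1 (HSP47) and the lysyl oxidases LOX, LOXL1 and LOXL2. These 10 genes were taken by symbol from a matrix of 62754 genes, and each symbol matched 1 row. Expression was measured by RNA sequencing in EA.hy926, an endothelial line made by fusing umbilical vein endothelial cells with the lung carcinoma line A549. Cells received the transfection reagent alone (Mock), a non-targeting siRNA (siNT) or a pool of siRNAs against ELMO1 (siELMO1), both siRNAs at 10 nM. They were grown in serum-containing medium, starved in low serum overnight, and harvested 48 h after transfection (0 h) or following 24 h more in the presence of 1 μg/ml poly(I:C), a double-stranded RNA that activates TLR3. Each of the 6 groups had 3 libraries. No 24 h group went without poly(I:C), so poly(I:C) and the additional day in culture cannot be told apart. The study reports massive death of siNT cells under poly(I:C), much less death in Mock, and inhibited apoptosis in siELMO1. It proposes cell death as the likely reason for lower inflammatory gene expression in siNT. The part of this cell death in differences that involve siNT after poly(I:C) was not tested. The libraries of a group are described in the methods of the study as biological replicates, and p-values measure the spread between them. Several of the genes differed between siNT and Mock, and all 3 transfections are therefore given side by side. In such bulk libraries, fewer cells of a type and less RNA per cell cannot be told apart.

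Collagen chains are hydroxylated on proline and lysine while they are still unfolded. 4-Hydroxyproline, made by the prolyl 4-hydroxylase tetramer of P4HA and P4HB subunits, stabilises the triple helix. P3H1 acts in a complex with CRTAP and the isomerase cyclophilin B (PPIB), and SERPINH1 binds the folded procollagen until it leaves the endoplasmic reticulum. Hydroxylysine made by the PLOD enzymes carries sugars and determines which crosslinks can form, and PLOD2 hydroxylates the telopeptides from which crosslinks start. The copper enzymes of the LOX family then oxidise lysine and hydroxylysine in the extracellular space. In endothelium these enzymes serve mainly the collagens of the basement membrane and the pericellular matrix.

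Library totals ranged from 40374756 to 73850946 estimated counts. ELMO1, the siRNA target, lay at 0.155 to 0.419 CPM (counts scaled to a common library size, with TMM factors) in the 6 siELMO1 libraries and at 1.52 to 3.58 CPM in the other 12, with no overlap. One library stood apart: siELMO1 0 h replicate 1 differed from the other 2 libraries of its group by a chi-square of 54.9 and 61.2 per degree of freedom over genes, against 8.66 to 23.2 for all other pairs of replicates. No member changed its call in a comparison of transfections without it, except P4HA1 against siNT at 0 h, given below. The listed fibroblast markers DCN and LUM and epithelial markers CDH1, SFTPC and NKX2-1 had 0 counts in every library, which allows up to 0.0752 CPM. Other listed epithelial markers were expressed, and 5 of the 9 passed the filter on low counts. The summed level of 12 endothelial markers was higher in siELMO1 than in the other transfections, at 2006 to 2108 CPM where Mock had 1306 to 1421 CPM and siNT 1479 to 1561 CPM at 0 h, and at 1991 to 2396 CPM against 1163 to 1433 CPM and 1423 to 1592 CPM at 24 h. The sum over 9 fibroblast markers was likewise highest in siELMO1, at 82.2 to 84.0 CPM in siELMO1 while Mock had 52.1 to 55.9 CPM and siNT 32.8 to 36.1 CPM at 0 h, and at 24 h it was 64.4 to 73.9 CPM against 29.1 to 37.0 CPM and 19.7 to 21.8 CPM. FAP was the only one of those 9 that passed the filter on low counts, at 0.61 against Mock and 1.29 against siNT on the log2 scale at 0 h. The sum over 9 epithelial markers at 0 h ran from 1517 to 1539 CPM for Mock, from 1880.3 to 1911 CPM for siNT and from 2100.2 to 2224 CPM for siELMO1, and at 24 h 843 to 862, 1011 to 1056 and 1099 to 1314 CPM. Of the 10 endothelial markers tested, 7 were higher in siELMO1 than in Mock at 0 h and 8 higher than in siNT, among them KDR (2.07 against Mock and 1.63 against siNT) and VWF (1.23 against Mock and 1.79 against siNT), and of 5 epithelial markers tested 3 and 1 were, among them KRT8 (0.60 against Mock and 0.55 against siNT). Among the endothelial markers 1 was called lower than in siNT. Of all genes tested at 0 h, 27.9% were called higher and 22.4% lower against Mock, and 31.3% in each direction against siNT. The part of these marker differences in the results on collagen enzymes was not tested.

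Counted per transcript length, the members spanned a wide range of levels. PLOD2 was the highest, at a mean over the 18 libraries of 1323 TPM (range 894 to 1819.7), which was 4.77 times the next gene, SERPINH1, at 277 TPM (range 159.6 to 452). LOXL2 and PLOD1 followed at 199.9 TPM (range 118 to 334) and 194 TPM (range 101 to 349.6). PLOD3, P3H1, P4HA1, LOX and P4HA2 had means between 63.6 and 89.5 TPM with overlapping ranges, so their order is not resolved. LOXL1 was far below the rest at 4.3 TPM (range 1.81 to 6.74), from 111 to 468 estimated counts per library, and its fold changes carry the widest errors. With the length of each gene's most counted transcript in place of the mean length, P4HA2 moved the most in proportion, to 49.6 TPM.

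**Figure D1:**
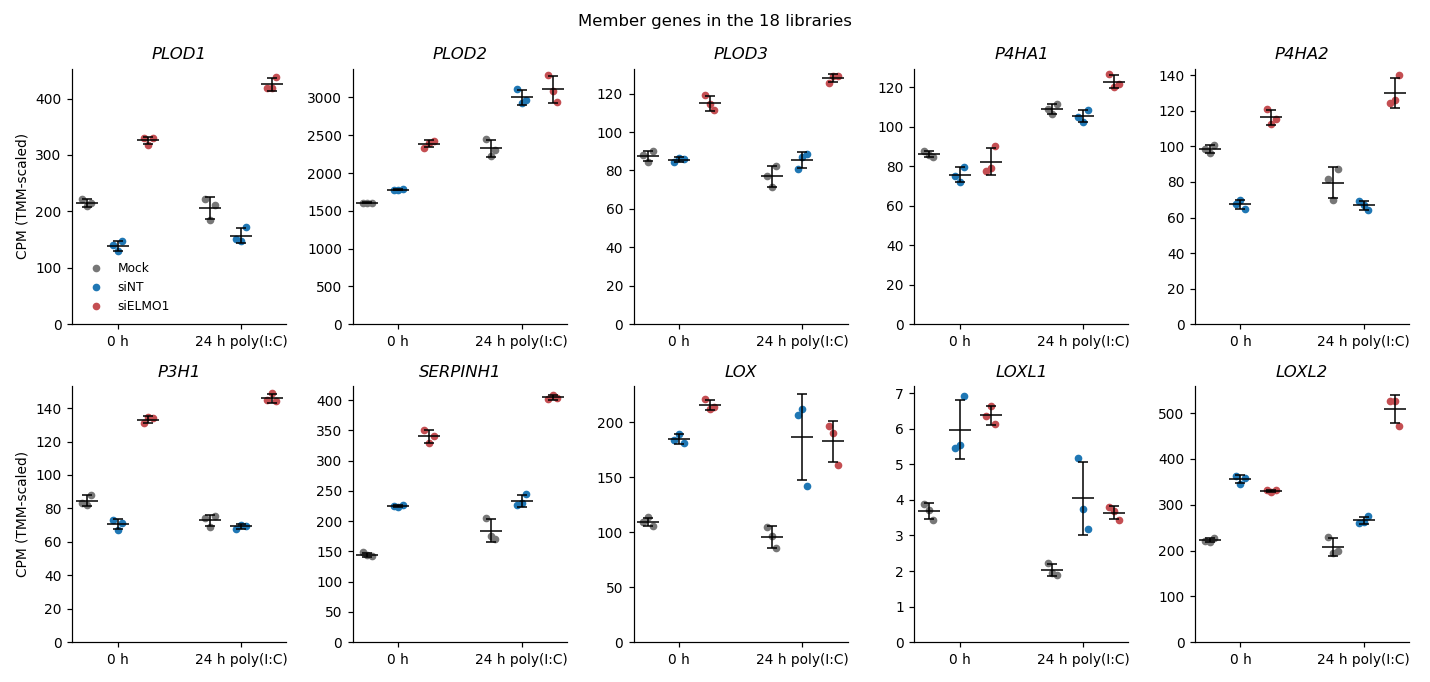
Levels of the 10 members in each library, as TMM-scaled CPM on linear axes that start at 0. Points are libraries (3 per group), long bars are means and whiskers are SD. PLOD1, PLOD3, P4HA2, P3H1 and SERPINH1 lie highest in siELMO1 at both times, whereas LOX and LOXL1 lie at similar levels in siNT and siELMO1, above Mock.

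Before poly(I:C), collagen-modifying enzymes were mostly higher in siELMO1 than in either control, whereas the lysyl oxidases were higher in both siRNA groups than in Mock. Against Mock, 9 of the 10 members were called higher and 0 lower in siELMO1 (edgeR quasi-likelihood test, Benjamini-Hochberg adjusted p under 0.05 over 15167 genes), where 27.9% of all genes tested were called higher and 22.4% lower. The 1 member not called, P4HA1, was also not called by DESeq2 or limma-voom, but was called lower with library totals alone (adjusted p = 0.0246). Against siNT, 6 were called higher and 0 lower, with 31.3% of all genes called in each direction. Between the controls themselves, 5 members were higher and 4 lower in siNT than in Mock, against 27.6% of all genes called higher and 24% lower. The median log2 fold change of the members was 0.58 against Mock, 0.42 against siNT and 0.06 for siNT against Mock, beside 0.04, 0.00093 and 0.03 over all genes tested. The comparisons share libraries, so these counts are not independent of each other.

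After 24 h of poly(I:C) P4HA1 was also called, and LOXL2 was now higher in siELMO1 than in siNT. All 10 members were called higher in siELMO1 than in Mock, against 21.6% of all genes called higher and 22% lower. In siELMO1 against siNT 7 were higher and 0 lower, where 26% of all genes were called higher and 26.5% lower. In siNT against Mock 6 were higher and 2 lower, beside 25.2% and 24.9% of all genes. The members' median log2 fold change was 0.89 against Mock, 0.69 against siNT and 0.25 for siNT against Mock, beside -0.01 over all genes for either siELMO1 comparison. Most differences were modest: with a fold change over 2 also required, 3 members remained called against Mock (PLOD1, SERPINH1 and LOXL2) and 2 against siNT (PLOD1 and P3H1). At 0 h that requirement left SERPINH1 against Mock and PLOD1 against siNT. The shares of all genes given here are for adjusted p alone, and none was taken at this cut. Whether the death of siNT cells under poly(I:C) had a part in the differences from siNT was not tested.

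**Figure D2:**
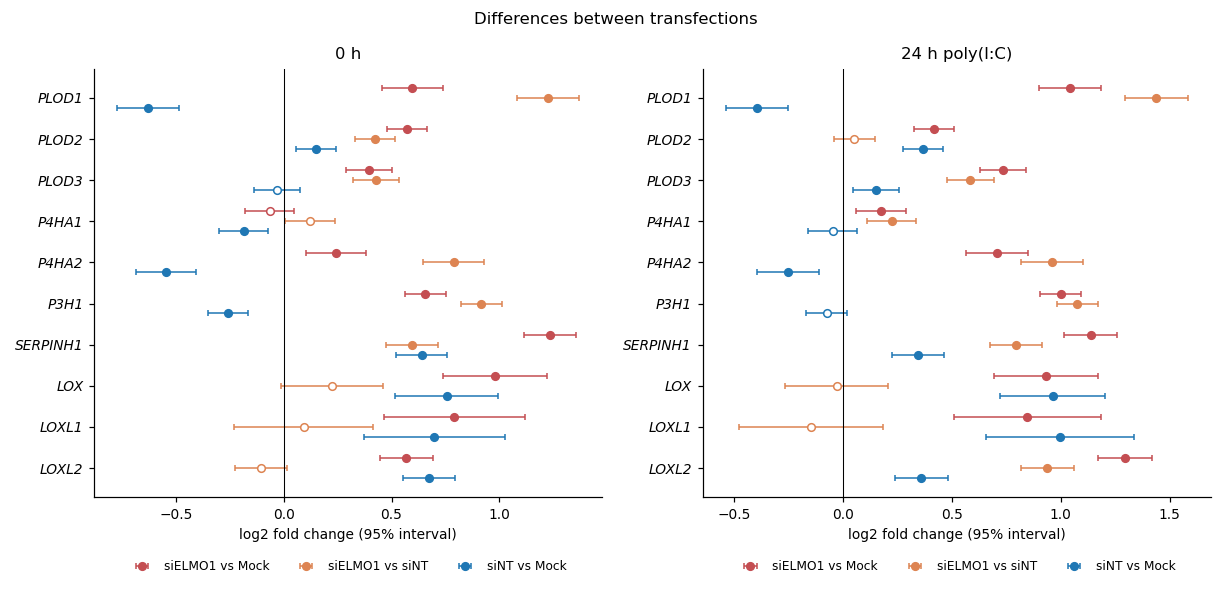
Log2 fold changes of the members between transfections at 0 h (left) and after 24 h of poly(I:C) (right), with 95% intervals from the edgeR fit. Filled points have an adjusted p under 0.05. For PLOD1 and P4HA2 siNT lay below Mock and siELMO1 above it at both times, and for LOX and LOXL1 the siELMO1 and siNT differences from Mock were of like size.

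The lysyl hydroxylases differed from each other most in siNT. PLOD1, which hydroxylates lysines of the helix, was at 222, 209 and 215 CPM in Mock, 140.3, 130.1 and 147 CPM in the siNT libraries and 329.7, 318 and 329.7 CPM in siELMO1 at 0 h. The 3 groups did not overlap, with siNT the lowest and siELMO1 the highest. PLOD1 was 2.34-fold higher in siELMO1 than in siNT (log2 fold change 1.23 ± 0.068, adjusted p = 4.15e-11), 1.51-fold higher than in Mock (log2 fold change 0.60 ± 0.067, adjusted p = 8.52e-07) and 1.55-fold lower in siNT than in Mock (log2 fold change -0.63 ± 0.068, adjusted p = 5.04e-07). At 24 h its levels were 223, 185 and 212 CPM in Mock, 151, 148 and 172 CPM in the siNT libraries and 419, 418 and 438 CPM in siELMO1. The order was unchanged and the groups were again separate. PLOD1 was then 2.71-fold higher in siELMO1 than in siNT, the largest difference of any member in the 4 comparisons of siELMO1 with a control (log2 fold change 1.44 ± 0.068, adjusted p = 4.33e-11), and 2.06-fold higher than in Mock (log2 fold change 1.04 ± 0.068, adjusted p = 2.38e-09).

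PLOD3, which also carries glycosyltransferase activity towards hydroxylysine, had 87.5 ± 2.68 CPM in Mock (mean ± SD, n = 3), 85.6 ± 1.23 in siNT and 115 ± 3.84 in siELMO1 at 0 h. Mock and siNT libraries overlapped and siELMO1 stood above both, by 1.31-fold over Mock (log2 fold change 0.39 ± 0.051, adjusted p = 4e-06) and 1.34-fold over siNT (log2 fold change 0.43 ± 0.051, adjusted p = 9.24e-07). At 24 h the log2 fold change was 0.73 ± 0.051, adjusted p = 4.54e-09 over Mock and 0.58 ± 0.051, adjusted p = 4.54e-08 over siNT. The siNT libraries at 24 h were called 1.11-fold higher than Mock although their ranges overlapped, and that call was lost without any 1 of 4 libraries, Mock 24 h replicate 1 or 2 or siNT 24 h replicate 2 or 3 (adjusted p = 0.0717, 0.122, 0.0699 and 0.0787). Over 15 alternatives, other settings included, the call held in 9.

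PLOD2, the telopeptide lysyl hydroxylase, showed a different order. At 0 h it lay at 1609, 1600.2 and 1609.8 CPM in Mock, 1782, 1775 and 1786 CPM in the siNT libraries and 2335, 2403 and 2427 CPM in siELMO1. Both siRNA groups stood above Mock, siELMO1 by 1.49-fold (log2 fold change 0.57 ± 0.044, adjusted p = 6.96e-09) and siNT by 1.11-fold (log2 fold change 0.15 ± 0.044, adjusted p = 0.00902). Leaving out Mock 0 h replicate 1, 2 or 3 lost the siNT call (adjusted p = 0.0768, 0.0922 and 0.077). With other settings included, that call held in 10 of 15 alternatives. At 24 h the levels were 2453, 2228 and 2299.5 CPM in Mock, 3106, 2924 and 2971 CPM in the siNT libraries and 3298, 3089 and 2937 CPM in siELMO1. By then the siNT and siELMO1 libraries overlapped, and their difference was within a narrow interval around 0 (log2 fold change 0.05 ± 0.044, adjusted p = 0.356, 95% interval -0.04 to 0.14). Both remained above Mock, by 1.29-fold in siNT and 1.34-fold in siELMO1 (adjusted p = 2.49e-06 and 6.58e-07).

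PLOD2 is known for an alternative exon that distinguishes its long from its short form. The exon is shown because the transcript counts described further on divide on it. It lies in the coding sequence at chr3:146077862-146077924 (GRCh38, GENCODE v44, minus strand, exon 14 of 20 of PLOD2-201), has 63 bases and is given in capitals with 15 bases of the neighbouring exons on either side.
PLOD2 alternative exon: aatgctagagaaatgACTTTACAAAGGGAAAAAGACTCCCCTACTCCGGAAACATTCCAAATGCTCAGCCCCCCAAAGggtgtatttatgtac

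Among the prolyl hydroxylases, P3H1 and P4HA2 were distributed over the transfections like PLOD1. P3H1 had 83.3, 81.9 and 88.2 CPM in Mock, 73.0, 67.2 and 71.5 CPM in the siNT libraries and 131, 134 and 134 CPM in siELMO1 at 0 h. It was 1.58-fold higher in siELMO1 than in Mock (log2 fold change 0.66 ± 0.045, adjusted p = 1.26e-09), 1.89-fold higher than in siNT (log2 fold change 0.92 ± 0.045, adjusted p = 8.31e-12) and 1.20-fold lower in siNT than in Mock (log2 fold change -0.26 ± 0.045, adjusted p = 0.000109). At 24 h P3H1 was at 74.1, 69.1 and 75.5 CPM in Mock, 67.8, 70.2 and 69.5 CPM in the siNT libraries and 145, 149 and 144 CPM in siELMO1. The controls now overlapped, and siELMO1 was 2.00-fold above Mock and 2.11-fold above siNT (adjusted p = 5.47e-11 and 1.12e-11).

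The 2 catalytic subunits of prolyl 4-hydroxylase behaved differently. P4HA2 averaged 98.4 ± 2.13 CPM in Mock (mean ± SD, n = 3), 67.4 ± 2.48 in siNT and 116 ± 4.15 in siELMO1 at 0 h, with no overlap. Against siNT it was 1.73-fold higher in siELMO1 (log2 fold change 0.79 ± 0.067, adjusted p = 1.24e-08). Against Mock the difference was smaller (log2 fold change 0.24 ± 0.066, adjusted p = 0.00544). Over 15 alternatives, other settings or 1 library left out, it was called in 12. Among the losses were those without Mock 0 h replicate 2 (adjusted p = 0.0514) and with transcript length as an offset (adjusted p = 0.148). At 24 h P4HA2 averaged 79.7 ± 8.86 CPM in Mock, 66.9 ± 2.45 in siNT and 130.1 ± 8.57 in siELMO1, 1.63-fold above Mock and 1.95-fold above siNT (adjusted p = 1.79e-07 and 3.32e-09). P4HA2 overlaps P4HA2-AS1, PDLIM4 and SLC22A4 on the other strand. The study used a stranded library kit, and whether counting used strand is not stated. PLOD3 overlaps ZNHIT1 on the other strand, and PLOD2 and P4HA1 overlap unnamed or non-coding genes on both strands. PLOD1, P3H1 and SERPINH1 overlap no other annotated gene.

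P4HA1 did not differ between any 2 transfections at the same time by more than 0.22 on the log2 scale. It lay at 87.7, 85.8 and 84.6 CPM in Mock, 75.2, 72.1 and 79.6 CPM in the siNT libraries and 77.4, 79.3 and 90.2 CPM in siELMO1 at 0 h, and the siELMO1 libraries overlapped both controls. Its difference from Mock was -0.06 on the log2 scale (95% interval -0.18 to 0.05) and from siNT 0.12 (95% interval 0.01 to 0.24), neither called (adjusted p = 0.348 and 0.0592). P4HA1 was 1.14-fold below Mock in the siNT libraries of 0 h (log2 fold change -0.19 ± 0.054, adjusted p = 0.00779). Leaving out 1 library turned these into calls: against Mock, lower without siELMO1 0 h replicate 3 (adjusted p = 0.0335), and against siNT, higher without siNT 0 h replicate 3 or siELMO1 0 h replicate 1 or 2 (adjusted p = 0.0296, 0.0142 and 0.0447). The difference from siNT was also called with the replicate block and with upper-quartile factors (adjusted p = 0.0377 and 0.0323). That from Mock was called, as lower, with library totals alone (adjusted p = 0.0246). At 24 h P4HA1 was 1.13-fold higher in siELMO1 than in Mock and 1.17-fold higher than in siNT (adjusted p = 0.0145 and 0.00211). The first of these calls was lost without Mock 24 h replicate 2 or siELMO1 24 h replicate 1 (adjusted p = 0.0578 and 0.0617).

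P4HA1 transcripts carry 1 or the other of a pair of exons of equal length, shown because they are the main difference between its coding transcripts. They lie in the coding sequence at chr10:73044981-73045051 (GRCh38, exon 9 of 15 of P4HA1-202) and chr10:73043887-73043957 (exon 9 of 15 of P4HA1-203), on the minus strand. Capitals mark the 28 of 71 bases at which they differ.
P4HA1-202 exon 9: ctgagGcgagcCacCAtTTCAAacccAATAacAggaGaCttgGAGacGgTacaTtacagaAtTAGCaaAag
P4HA1-203 exon 9: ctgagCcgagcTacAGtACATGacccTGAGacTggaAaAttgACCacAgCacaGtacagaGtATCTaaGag

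SERPINH1, the collagen-specific chaperone, rose stepwise over the transfections. At 0 h it was at 148, 144 and 142 CPM in Mock, 225, 223 and 227 CPM in the siNT libraries and 350.3, 329 and 341 CPM in siELMO1. Each step separated the libraries completely. SERPINH1 was 1.56-fold higher in siNT than in Mock (log2 fold change 0.64 ± 0.057, adjusted p = 5.31e-08), 1.51-fold higher in siELMO1 than in siNT (log2 fold change 0.60 ± 0.057, adjusted p = 5.53e-08) and 2.35-fold higher in siELMO1 than in Mock, the largest member difference of that comparison (log2 fold change 1.24 ± 0.057, adjusted p = 6.59e-12). After poly(I:C) the levels were 206, 175 and 171 CPM in Mock, 226, 229.6 and 244 CPM in the siNT libraries and 401, 409 and 403 CPM in siELMO1. The order was kept, with siELMO1 2.20-fold above Mock and 1.73-fold above siNT (adjusted p = 1.61e-10 and 4.42e-09).

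The lysyl oxidases were higher in both siRNA groups than in Mock. LOX, the founding enzyme of the family, had 109, 113 and 106 CPM in Mock, 184, 189.8 and 181 CPM in the siNT libraries and 221, 212 and 214 CPM in siELMO1 at 0 h. It was 1.69-fold higher in siNT than in Mock (log2 fold change 0.76 ± 0.11, adjusted p = 2.4e-05) and 1.97-fold higher in siELMO1 (log2 fold change 0.98 ± 0.11, adjusted p = 1.22e-06). The 3 siELMO1 libraries lay above the 3 siNT libraries, but the difference was not called (log2 fold change 0.22 ± 0.11, adjusted p = 0.0933, 95% interval -0.01 to 0.46). It was called with only these 6 libraries in the fit (adjusted p = 0.00326) and with the replicate block (adjusted p = 0.0333). At 24 h LOX was at 105, 96.8 and 85.5 CPM in Mock, 206, 212 and 142 CPM in the siNT libraries and 197, 190.2 and 161 CPM in siELMO1, where siNT and siELMO1 overlapped and siNT 24 h replicate 3 was well below the other siNT libraries. Their difference was -0.03 on the log2 scale (95% interval -0.27 to 0.21), while both stood above Mock (adjusted p = 2.08e-06 for siNT and 3.45e-06 for siELMO1). LOX overlaps SRFBP1 on the other strand.

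LOXL1, an oxidase associated with elastic fibres, followed the same order at a much lower level. It had 3.89, 3.71 and 3.45 CPM in Mock, 5.45, 5.55 and 6.94 CPM in the siNT libraries and 6.36, 6.65 and 6.12 CPM in siELMO1 at 0 h, so the siRNA groups overlapped each other and not Mock. The difference from Mock was 1.62-fold in siNT and 1.73-fold in siELMO1 (adjusted p = 0.00106 and 0.000371). At 24 h it was 1.99-fold in siNT and 1.80-fold in siELMO1 (adjusted p = 6.09e-05 and 0.000347), and siELMO1 against siNT was -0.15 on the log2 scale with a 95% interval of -0.48 to 0.18. LOXL1 overlaps LOXL1-AS1 on the other strand.

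LOXL2, which crosslinks collagen IV among other substrates, changed its order over the poly(I:C) interval. At 0 h its levels were 221, 219 and 228 CPM in Mock, 363, 346 and 358 CPM in the siNT libraries and 332, 327 and 331 CPM in siELMO1. The siELMO1 libraries lay just below siNT, a difference that was not called (log2 fold change -0.11 ± 0.057, adjusted p = 0.119), and both lay above Mock, by 1.60-fold in siNT and 1.48-fold in siELMO1 (adjusted p = 3.25e-08 and 2.31e-07). At 24 h the levels were 229.7, 194 and 198 CPM in Mock, 261, 262 and 274 CPM in the siNT libraries and 527, 527 and 473 CPM in siELMO1. All 3 siELMO1 libraries now lay far above the others, 2.46-fold over Mock (log2 fold change 1.30 ± 0.058, adjusted p = 5.47e-11) and 1.92-fold over siNT (log2 fold change 0.94 ± 0.058, adjusted p = 7.31e-10). LOXL2 overlaps LOXL2-AS1 on the other strand and ENTPD4 on its own.

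Over the 24 h with poly(I:C), PLOD2 and P4HA1 rose and LOXL1 fell in each of the 3 transfections, LOX was called in none, and the calls of the other members were not the same in all 3. In Mock 3 members rose and 4 fell, where 30.7% of all genes were called higher and 29.6% lower. Scaled by library totals alone, 7 fell, PLOD1, LOX and LOXL2 being added (adjusted p = 0.0334, 0.0237 and 0.00352). In siNT 3 rose and 2 fell, beside 28.6% and 25.2% of all genes, and in siELMO1 8 rose and 1 fell, beside 28% and 26.9%. PLOD2 rose 1.45-fold in Mock, 1.68-fold in siNT and 1.30-fold in siELMO1 (adjusted p = 9.76e-09, 1.79e-10 and 1.02e-06). P4HA1 rose 1.27-fold, 1.39-fold and 1.49-fold in the same order (adjusted p = 3e-05, 8.3e-07 and 6.49e-08). LOXL1 was 1.82-fold lower at 24 h in Mock, 1.48-fold lower in siNT and 1.75-fold lower in siELMO1 (adjusted p = 0.000158, 0.00513 and 0.000272).

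In Mock, PLOD3, P4HA2 and P3H1 fell, by 0.19, 0.30 and 0.21 on the log2 scale (adjusted p = 0.00426, 0.000739 and 0.000544), while in siELMO1 all 3 rose, by 0.16, 0.16 and 0.13 (adjusted p = 0.0147, 0.0497 and 0.0187). The increases in siELMO1 were small, and each of the 3 calls was lost with upper-quartile factors (adjusted p = 0.124, 0.209 and 0.161) and with library totals alone (adjusted p = 0.17, 0.254 and 0.202). The P4HA2 call was also lost with no filter on low counts, with only the groups compared and with limma-voom (adjusted p = 0.0547, 0.0753 and 0.0509), and the P3H1 call with the length offset and with only the groups compared (adjusted p = 0.112 and 0.0649). The PLOD3 call was also lost without siELMO1 0 h replicate 3 (adjusted p = 0.0598), that of P3H1 without siELMO1 24 h replicate 2 (adjusted p = 0.0662), and that of P4HA2 without replicate 2 or 3 of siELMO1 at either time (adjusted p between 0.0522 and 0.227). LOXL2 fell by 0.42 in siNT and rose by 0.62 in siELMO1 (adjusted p = 8.05e-06 and 5.38e-08), with -0.10 in Mock (adjusted p = 0.132). SERPINH1 rose by 0.35 in Mock and 0.25 in siELMO1 (adjusted p = 4.34e-05 and 0.00117), and its log2 fold change in siNT was 0.05 (adjusted p = 0.461). PLOD1 rose by 0.38 in siELMO1 (adjusted p = 0.000103) and by 0.17 in siNT (adjusted p = 0.0401), the latter not without siNT 0 h replicate 1 or 2 or siNT 24 h replicate 3 (adjusted p = 0.0715, 0.173 and 0.231). The PLOD1 call in siNT was also lost under 5 other settings: library totals, upper-quartile factors, the length offset, no filter on low counts and only the groups compared (adjusted p = 0.12, 0.119, 0.0547, 0.117 and 0.0791). LOX was not called in any transfection in the fit over all libraries, with log2 fold changes of -0.19 in Mock, 0.01 in siNT and -0.24 in siELMO1 (adjusted p = 0.157, 0.926 and 0.0813). Its fall in siELMO1 was called with library totals, upper-quartile factors, the replicate block, only the groups compared and DESeq2 (adjusted p = 0.0304, 0.0313, 0.0237, 0.0355 and 0.0456).

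**Figure D3:**
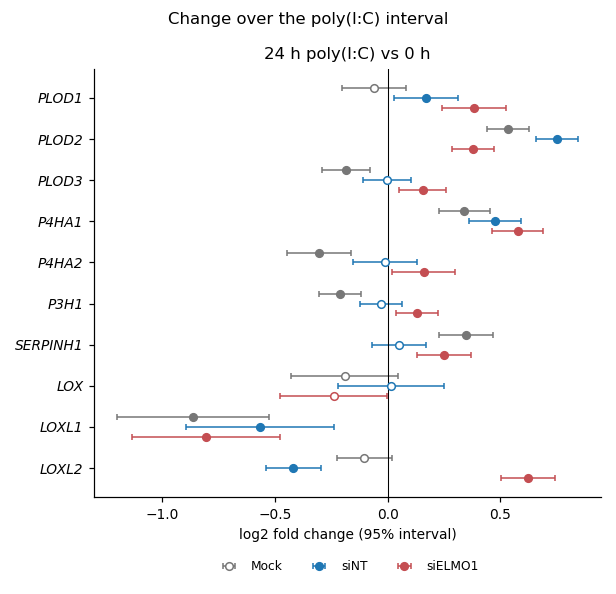
Log2 fold changes of the members from 0 h to 24 h of poly(I:C) within each transfection, with 95% intervals from the edgeR fit and filled points at an adjusted p under 0.05. PLOD2 and P4HA1 lie right of 0 and LOXL1 left of 0 in all 3 transfections, and LOXL2 lies left of 0 in siNT and right of 0 in siELMO1.

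The difference between these changes was tested directly as an interaction. LOXL2 showed the largest one: its change in siELMO1 exceeded that in siNT by 1.04 on the log2 scale (SE 0.081, adjusted p = 2.33e-08) and that in Mock by 0.73 (SE 0.081, adjusted p = 3.43e-06). Against siNT, 2 members were called, LOXL2 and PLOD2, where 34.5% of all genes were called in either direction. PLOD2 rose less in siELMO1 than in siNT, with a difference of -0.37 (adjusted p = 0.000161). Whether the death of siNT cells under poly(I:C) had a part in either difference was not tested. Against Mock, 6 members were called, all with a more positive change in siELMO1, where 28.3% of all genes were called. These were LOXL2, PLOD1 (0.44), PLOD3 (0.34), P4HA1 (0.24), P4HA2 (0.46) and P3H1 (0.34), with adjusted p-values from 3.43e-06 to 0.0268. The P4HA1 call was lost without siELMO1 0 h replicate 2, Mock 24 h replicate 2 or siELMO1 24 h replicate 1 (adjusted p = 0.0683, 0.0616 and 0.0676).

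Between siNT and Mock, 5 members differed in their change, where 31% of all genes did. PLOD2 (0.22), P4HA2 (0.29) and P3H1 (0.18) changed more positively in siNT, and SERPINH1 (-0.30) and LOXL2 (-0.32) more negatively, with adjusted p-values from 0.00652 to 0.0363. With transcript length as an offset the 3 positive differences were not called (adjusted p = 0.205, 0.0765 and 0.1). Over 21 alternatives, other settings or 1 library left out, LOXL2 was called in 21, PLOD2 and SERPINH1 in 20 each, P4HA2 in 17 and P3H1 in 12. Those of P4HA2 and P3H1 also depended on single libraries: P4HA2 was not called without siNT 0 h replicate 3, Mock 24 h replicate 2 or siNT 24 h replicate 1, and P3H1 without Mock 0 h replicate 3, siNT 0 h replicate 2 or 3, Mock 24 h replicate 2, or siNT 24 h replicate 2 or 3 (adjusted p between 0.0524 and 0.102 for P3H1, and 0.0589 and 0.0652 for P4HA2).

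Other differences were called when 1 library was left out. Without siNT 24 h replicate 3, those of PLOD1, SERPINH1 and LOX were called for siELMO1 against siNT (adjusted p = 0.023, 0.0404 and 0.00608), and that of LOX for siNT against Mock (adjusted p = 0.0151). Without siELMO1 0 h replicate 1, the library that stood apart, PLOD3 and SERPINH1 were called against siNT (adjusted p = 0.0495 and 0.0435) and PLOD2 against Mock (adjusted p = 0.0399). PLOD2 against Mock was also called without Mock 24 h replicate 2 or siELMO1 24 h replicate 1, and P3H1 against siNT without siNT 0 h replicate 2 (adjusted p = 0.0309). For siNT against Mock, PLOD3 was called without Mock 0 h replicate 2, Mock 24 h replicate 3 or siNT 24 h replicate 1, and PLOD1 without Mock 24 h replicate 1. The fall of LOXL2 over 24 h in Mock was called without Mock 24 h replicate 1 (adjusted p = 0.0018).

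Transcript counts within the members varied widely between libraries of one group. Of the PLOD2 counts in transcripts that carry the alternative exon or skip it, the share with the exon was 53.9%, 52.0% and 56.5% in the Mock libraries at 0 h and 68.6%, 66.9% and 59.4% at 24 h. In Mock the share was thus higher in every 24 h library than in every 0 h library. It was 46.3%, 59.4% and 52.5% in siNT at 0 h and 69.7%, 59.6% and 61.3% at 24 h, again without overlap, although the highest 0 h value and the lowest 24 h value nearly met. As a share of all PLOD2 counts the siNT libraries overlapped, at 30.6%, 43.3% and 33.3% at 0 h and 33.2%, 48.3% and 46.6% at 24 h, and the Mock libraries did not, at 36.3%, 24.7% and 43.5% at 0 h and 49.2%, 50.1% and 52.2% at 24 h. In siELMO1 the share among transcripts that carry or skip the exon was 44.1%, 77.7% and 42.2% at 0 h and 68.9%, 74.7% and 56.2% at 24 h, where the libraries overlapped. This share was looked at after the transcript counts had been seen and was not tested, and within 1 group it ranged as widely as from 42.2% to 77.7%. At 24 h the group means were 65.0% ± 4.92 in Mock (mean ± SD, n = 3), 63.5% ± 5.38 in siNT and 66.6% ± 9.46 in siELMO1, with overlapping libraries. For P4HA1 the exon of P4HA1-202 took 53.4% ± 5.11 in Mock, 51.1% ± 11.6 in siNT and 56.5% ± 8.98 in siELMO1 at 0 h, with single libraries between 40.1% and 63.3% over all groups, and at 24 h the means were 51.6% ± 7.79, 48.9% ± 5.09 and 45.8% ± 1.25. P4HA2 also has a pair of alternative exons, of 66 bases in P4HA2-205 and 60 in P4HA2-202, and the share with the first had group means from 39.6% to 49.9% with single libraries from 29.2% to 54.2%.

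**Figure D4:**
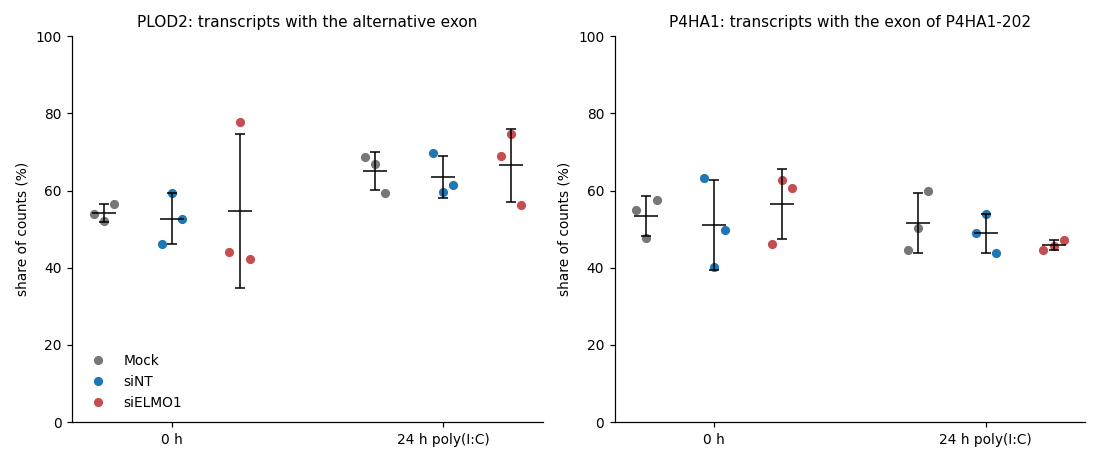
Share of counts with the alternative exon of PLOD2 (left) and with the exon of P4HA1-202 in place of that of P4HA1-203 (right), in percent of the counts in transcripts that carry or skip that exon. Points are libraries, bars are means and whiskers are SD (n = 3). The PLOD2 share in Mock was 52.0% to 56.5% at 0 h and 59.4% to 68.6% at 24 h, and the P4HA1 share lay between 40.1% and 63.3% over all libraries.

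The share of each transcript within its gene was tested between siELMO1 and the controls with edgeR's diffSpliceDGE over 49840 transcripts, of which 62 belonged to members. At 0 h 1 member transcript was called against Mock and 2 against siNT, beside 0.815% and 0.873% of all transcripts, and at 24 h 0 were called against either control, beside 0.668% and 0.861%. The calls fell on P3H1-214, a retained-intron transcript, and PLOD2-230. Neither was steady across replicates. P3H1-214 held 895 counts in 1 Mock library at 0 h and 0 and 4 in the others, and PLOD2-230 held 4945, 1975 and 0 counts in the siNT libraries at 0 h and 0 counts in all Mock and siELMO1 libraries at 0 h. Without siELMO1 0 h replicate 1, 2 or 3, or Mock 0 h replicate 2, no member transcript was called against Mock. At an unadjusted p under 0.05, 3125 of all transcripts passed against Mock and 3259 against siNT at 24 h.

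Most partners of these enzymes were also higher in siELMO1. In the list of prolyl hydroxylase partners and isomerases, 7 of 7 genes were higher in siELMO1 than in Mock at 0 h and 6 of 7 higher than in siNT, with 0 lower. Beside these, 27.9% of all genes tested were called higher and 22.4% lower against Mock, and 31.3% in each direction against siNT. P4HB, the other subunit of prolyl 4-hydroxylase, had log2 fold changes of 0.22 against Mock (adjusted p = 0.000229) and 1.01 against siNT (adjusted p = 6.68e-13). The call against Mock was lost with transcript length as an offset (adjusted p = 0.0592). CRTAP, the scaffold of the P3H1 complex, had 0.26 against Mock and 0.34 against siNT, and PPIB, its isomerase, 0.54 against Mock and 0.89 against siNT, all called. P4HA3, the minor catalytic subunit, had 0.67 against Mock and 1.94 against siNT. Among the partners of the lysyl hydroxylases and the hydroxylysine glycosyltransferases, 4 of 5 tested were higher and 1 lower against each control, led by FKBP7, a prolyl isomerase of the endoplasmic reticulum, at 0.59 against Mock and 1.44 against siNT, and COLGALT1, which adds galactose to hydroxylysine, at 0.59 against Mock and 0.46 against siNT.

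The collagens that these enzymes act on were higher in siELMO1 as well. Of 15 listed, 8 passed the filter on low counts. All 8 were higher in siELMO1 than in Mock at 0 h and 7 of 8 higher than in siNT, with median log2 fold changes of 1.02 and 1.33. The shares of all genes tested were 27.9% higher and 22.4% lower against Mock, and 31.3% in each direction against siNT. COL5A1 reached 2.88 against Mock and 3.66 against siNT and COL4A1 1.53 against Mock and 2.15 against siNT. Both genes, like PLOD1, were chosen by the study from these samples, so their direction here is not independent evidence. Steps after modification were mixed, in lists of 3 to 6 tested genes. For procollagen export the comparison with Mock gave 3 genes up and 3 down and that with siNT 3 up and 0 down, with MIA3, which loads procollagen into carriers, at 0.87 against Mock and 0.65 against siNT and SEC24D, a coat protein of those carriers, at 0.34 against Mock and 0.35 against siNT. In propeptide processing 1 of 3 tested was higher and 2 lower against each control: BMP1, the C-proteinase, was at 0.72 against Mock and 0.46 against siNT and its enhancer PCOLCE at -0.60 against Mock and -1.36 against siNT. Among the other crosslinking enzymes 2 of 3 were higher against each control. These were PXDN, which forms sulfilimine bonds in collagen IV, at 1.39 against Mock and 0.81 against siNT, and transglutaminase TGM2 at 0.15 against Mock and 0.10 against siNT, whose call was lost in both comparisons when no filter was set on low counts (adjusted p = 0.152 and 0.34). Elastic fibre genes, substrates of LOX and LOXL1, had 2 of 4 higher and 1 lower against each control, with the fibrillins FBN2 at 0.88 against Mock and 0.79 against siNT and FBN1 at 1.39 against Mock and 0.76 against siNT.

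At 24 h, 6 of 7 prolyl hydroxylase partners and 8 of 8 collagens were higher in siELMO1 against each control. Beside the counts in this paragraph, 21.6% of all genes tested were called higher and 22% lower against Mock. Against siNT the shares were 26% and 26.5%. Procollagen export had 0 of 6 up and 2 down with Mock as the control, and 3 up and 1 down with siNT. Of 5 lysyl hydroxylase partners, 4 were higher against each control, and 1 and 0 were lower than in Mock and siNT. The other crosslinking enzymes had 2 of 3 higher than in Mock and 3 of 3 higher than in siNT. Propeptide processing had 1 of 3 higher against each control, and 0 and 1 lower than in Mock and siNT. Elastic fibre genes had 2 of 4 higher against each control, and likewise 0 and 1 lower.

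P4HA1, P4HA2, PLOD1, PLOD2 and LOX are known targets of the hypoxia response, and SERPINH1 of the heat shock response. At 0 h both lists held genes called in either direction. So did all genes tested, with 27.9% called higher and 22.4% lower against Mock, and 31.3% in each direction against siNT. Of 10 hypoxia-response genes tested, the siELMO1 comparison with Mock at 0 h called 4 up and 2 down and that with siNT 4 up and 4 down, with medians of 0.12 and 0.06. ADM, a vasodilator peptide, was at 0.85 against Mock and 0.77 against siNT, and the glucose transporter SLC2A1 at 0.98 against Mock and 0.68 against siNT. At 24 h these were 2 up and 1 down, and 3 up and 4 down. Of 10 heat shock response genes, 2 were up and 4 down at 0 h relative to Mock, and 6 up and 3 down relative to siNT. At 24 h the counts were 0 up and 7 down relative to Mock, and 3 in each direction relative to siNT. The shares of all genes at 24 h were 21.6% up and 22% down relative to Mock, and 26% and 26.5% relative to siNT. Whether either response had a part in the member differences was not tested. At 0 h HSPB1 was at 0.57 against Mock and 0.93 against siNT and the mitochondrial chaperonin HSPD1 at -1.18 against Mock and -0.63 against siNT.

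**Figure D5:**
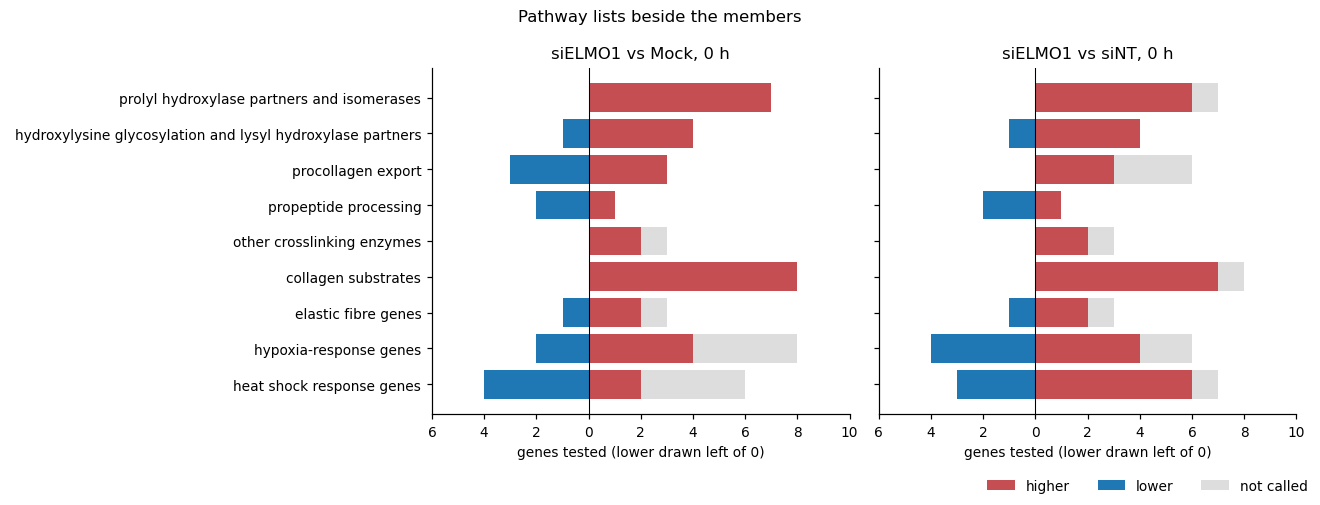
Number of tested genes in each pathway list called higher (right of 0), called lower (left of 0) or not called (grey) in siELMO1 at 0 h, against Mock (left) and against siNT (right). Collagens and prolyl hydroxylase partners have 0 genes called lower, whereas the hypoxia-response and heat shock lists have genes on both sides. Of all genes tested, 27.9% were called higher and 22.4% lower against Mock, and 31.3% in each direction against siNT.

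Likeness of pattern was measured as the root mean square difference of condition means on the log2 scale, each gene centred on its own mean over the 6 conditions, among 9551 genes with at least 10 CPM. P3H1 and P4HA2 were the closest pair of members, at 0.15, and PLOD1 was nearest to P3H1 at 0.19. SERPINH1 and LOXL2 were each other's nearest members at 0.25, and LOX and LOXL1 were 0.31 apart. Every member had other genes nearer to it than its nearest member among these genes, from 10 for PLOD1 to 1405 for P4HA1. There were 19 such genes for P3H1, 34 for P4HA2, 54 for SERPINH1, 26 for LOXL2 and 281 for LOXL1. For comparison, the condition means of P3H1 spanned 1.08 and those of LOXL1 1.64 on the same scale. Neighbours were taken only from genes with a symbol and at least 10 CPM, so LOXL1 was not itself among them. The nearest of them were FAM234A and BACE1 for PLOD1, H2BC12 and SENCR for PLOD2, KCTD20 and NAGPA for PLOD3, EXT1 and MAP3K11 for P4HA1, CTSB and APLP1 for P4HA2, IGFBP7 and PRCP for P3H1, CEMIP2 and BLCAP for SERPINH1, ABCC5 and FURIN for LOX, ST3GAL1 and TP53INP1 for LOXL1, and COL18A1 and ATP6AP1 for LOXL2, at distances from 0.047 to 0.16. The nearest gene to LOXL2, at 0.12, was thus the basement membrane collagen COL18A1, the only collagen among these nearest genes. The conditions share their libraries among all genes, and these distances are a description.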

How the data were processed

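Poly(A) RNA of EA.hy926 cells was sequenced by the authors in 18 libraries (3 for each of 6 groups), aligned to GRCh38 with STAR and quantified with StringTie against Gencode v44. The deposited gene and transcript matrices hold expected counts (estimated counts, whole numbers) made with the conversion script of StringTie; the read length given to it is not named, so all counts share an unknown factor. Library totals were 40374756 to 73850946. Columns were mapped to samples by the library number in the labels.

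Genes (15167) that summed to 100 counts or more over the libraries and reached 1 CPM in any of them were fitted in one edgeR 4.0.16 quasi-likelihood model over all 18 libraries with TMM factors (0.958 to 1.06), in R 4.3.3, for 12 comparisons. P-values were two-sided, adjusted by Benjamini-Hochberg over all genes tested, and called under 0.05. Fold changes are given ± SE on the log2 scale. CPM values use TMM factors; TPM values use count-weighted transcript lengths and are a description. The biological coefficient of variation was 12.2%. The fit was tested on simulated data first. Alternatives were DESeq2 1.42.0, limma-voom (limma 3.58.1), other normalizations, filters and designs, a replicate block, and each library left out. The members and lists were chosen with earlier results of these data known. The leukocyte marker list is not reported here. Named genes were ELMO1, all members, P4HB, CRTAP and PPIB, the 2 genes of each list with the largest change called alike against both controls at 0 h, and the 2 genes nearest to each member. Residuals of same-numbered libraries were correlated between groups. Among groups compared directly, all 3 correlations were over 0.1 only for siNT with Mock at 24 h (lowest 0.251). The same held for siELMO1 at 0 h with siNT at 24 h (lowest 0.119), which enter together only the response difference of siELMO1 against siNT. This is a check of the data and not from the labels. Libraries with different numbers were not correlated, so it cannot tell whether the numbers pair the libraries.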

Additional observations from a re-analysis of the deposited data

Results flagged for a closer look

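The change over the poly(I:C) interval differed between transfections for 8 members by a test of the difference itself. For siELMO1 against Mock the differences on the log2 scale were 0.44 (adjusted p = 0.00196) for PLOD1, 0.34 (adjusted p = 0.00171) for PLOD3, 0.24 (adjusted p = 0.0268) for P4HA1, 0.46 (adjusted p = 0.0013) for P4HA2, 0.34 (adjusted p = 0.00059) for P3H1 and 0.73 (adjusted p = 3.43e-06) for LOXL2. For siELMO1 against siNT they were -0.37 (adjusted p = 0.000161) for PLOD2 and 1.04 (adjusted p = 2.33e-08) for LOXL2. For siNT against Mock they were 0.22 (adjusted p = 0.0129) for PLOD2, 0.29 (adjusted p = 0.0252) for P4HA2, 0.18 (adjusted p = 0.0363) for P3H1, -0.30 (adjusted p = 0.00916) for SERPINH1 and -0.32 (adjusted p = 0.00652) for LOXL2. The 3 tests share libraries, and the background shares are 28.3%, 34.5% and 31% of all genes. Whether the death of siNT cells under poly(I:C) had a part in the differences that involve siNT was not tested.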

How the results depend on the processing

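Of 1980 values of single members under alternatives, 1848 kept direction and side of the threshold, 59 lost the call, 48 gained one and 25 changed sign. The sign changes all belonged to differences near 0 that were not called: LOX for siELMO1 against siNT 24 h (-0.19 to 0.070 with 1 library left out), LOXL1 for siELMO1 against siNT 24 h (-0.30 to 0.071 with 1 library left out), PLOD1 for 24 h against 0 h Mock (-0.15 to 0.013 with 1 library left out), PLOD3 for 24 h against 0 h siNT (0.0016, 0.021, -0.030 to 0.037 with 1 library left out), P4HA2 for 24 h against 0 h siNT (0.088, -0.040 to 0.016 with 1 library left out), SERPINH1 for 24 h against 0 h siNT (-0.0069), LOX for 24 h against 0 h siNT (-0.032, -0.024, -0.0089, -0.0022, -0.087 to 0.18 with 1 library left out), SERPINH1 for response difference siELMO1 against Mock (-0.15 to 0.014 with 1 library left out) and LOX for response difference siELMO1 against Mock (0.011, -0.12 to 0.047 with 1 library left out), on the log2 scale. Requiring a fold change over 2 left 1 member higher in siELMO1 at 0 h against Mock and 1 against siNT, 3 and 2 at 24 h, 0 in either direction for siNT against Mock at both times and for 24 h against 0 h, 0 lower in the response of siELMO1 against siNT, 0 higher in that against Mock, and 0 in either direction for siNT against Mock. No share of all genes was taken at that cut. Library totals without TMM factors gave 1 lower for siELMO1 against Mock at 0 h, 7 lower for 24 h against 0 h in Mock, 5 higher and 2 lower in siELMO1, and 6 higher and 1 lower in the response of siNT against Mock. The mean log2 TMM factors of the groups compared differed by over 0.1 only for 24 h against 0 h in Mock (-0.12). Counts are divided by these factors, so the log2 fold changes of all genes were higher there than with library totals alone. Upper-quartile factors gave 5 higher and 2 lower for 24 h against 0 h in siELMO1 and 5 higher in the response of siNT against Mock, and the length offset 2 higher in that of siELMO1 against siNT and 0 higher in that of siNT against Mock. DESeq2 gave 2 lower for 24 h against 0 h in siELMO1, 3 higher in the response of siELMO1 against siNT and 5 higher in that of siNT against Mock, and the fit on the compared groups alone 2 lower and 2 higher in the first pair of these. limma-voom and the filters moved no count by over 1.5 times. The cause was not tested.

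With a replicate block, 2 members were lower over 24 h in siELMO1 and 2 higher in the response of siELMO1 against siNT, and siELMO1 against siNT at 0 h had 8 higher, P4HA1 and LOX being the 2 gained (adjusted p = 0.0377 and 0.0333). For siNT against Mock at 24 h, where residuals of all same-numbered libraries correlated over 0.1, the block left 6 higher and 2 lower. Those of siELMO1 at 0 h with siNT at 24 h also did. In the other pairs of groups at least 1 correlation was not over 0.1, and in all 13 of 45 same-numbered pairs of libraries were.

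Leaving out 1 library gave 0 to 1 for siELMO1 against Mock, 0 h, lower, 1 to 3 for response difference, siELMO1 against siNT, higher, 1 to 2 for response difference, siELMO1 against siNT, lower, 0 to 1 for response difference, siELMO1 against Mock, lower, 1 to 4 for response difference, siNT against Mock, higher, 0 to 1 for transcript usage in siELMO1 against Mock, 0 h, 1 to 2 for transcript usage in siELMO1 against siNT, 0 h, 0 to 2 for transcript usage in siELMO1 against Mock, 24 h and 0 to 2 for transcript usage in siELMO1 against siNT, 24 h. These counts limit what 3 libraries a group can show, and for LOXL1 the depth of 111 to 468 counts does too.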

Other observations

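The 150 bases before the RefSeq starts of the members (GRCh38.p14) were searched on both strands for 6 motifs: ACGTG and GCGTG, forms of the core of the hypoxia-response element, GAANNTTC, an inverted pair of heat shock units, the CCAAT box, the TATAAA box and the GC box GGGCGG. Starts were given for 9 members. ACGTG occurred before P4HA1, PLOD2 and LOX, beside 12.6% of 35116 promoters of the same length, and GAANNTTC occurred before SERPINH1 alone among them, beside 3.3%. The sites are shown because these families of regulators are the known ones for the members, with the match in capitals on the strand of the gene.
P4HA1, chr10:73096937-73096963, minus strand: gtgatcgagctCACGTagcgagggctg
PLOD2, chr3:146161315-146161334, minus strand: ccagACGTGgggcccaggag
LOX, chr5:122078342-122078368, minus strand: ccaatcgcattACGTGaacaaatagct
SERPINH1, chr11:75562171-75562200, plus strand: ccaactttccaGAAGTTTCtcgggacgggc

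LOX had 3 matches before this start and 1 before its other 2 listed starts. The P4HA1 match is the reverse complement, CACGT. PLOD1, PLOD3, P4HA2, P3H1 and LOXL1 had neither ACGTG nor GAANNTTC in this window. GCGTG stood before PLOD1, LOX and SERPINH1 (23.5% of all promoters), CCAAT before PLOD2, LOX, P4HA2 and SERPINH1 (23.5%), TATAAA before P4HA1 (6.7%), and GGGCGG before PLOD1, PLOD2, PLOD3, P3H1, LOX and SERPINH1 (36.8%). A match is a description of letters, and binding was not measured.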
